A study of Mus musculus with 6 samples.

Results

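The genes described here are the interferon-inducible GTPases of regulatory T cells (Treg), measured on 6 arrays of mouse Treg, 3 from liver and 3 from spleen. Genes were taken by symbol from the deposited table, which listed 9 of the 10 symbols sought (Gbp2, Gbp3, Gbp4, Gbp7, Igtp, Irgm1, Irgm2, Iigp1 and Tgtp2) with 1 row each, among 38854 genes in all. Gbp5 had no row under its symbol and is not analysed here. All mice were of the genotype Foxp3-GFP, in which the Treg transcription factor Foxp3 marks the cells. Both tissues came from mice given a complex of IL-2 and an IL-2 antibody, which expands Treg, on 3 days, followed by a pause of 3 days, so no group without the complex enters the comparison. The labels describe the isolation of the cells once as fluorescence sorting and once as magnetic sorting. Arrays are called here by their label numbers, which are 2, 3 and 7 for liver and 4, 5 and 6 for spleen. No label says that they came from different animals, so each p-value rests on a spread between arrays that could be technical alone.

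Interferon-inducible GTPases are proteins of cell-autonomous immunity that are made in large amounts after interferon gamma, and in part after type I interferon, acts on a cell. Their induction runs through transcription factors, Irf1 among them, that bind GAS and ISRE elements near the start of the genes. The guanylate-binding proteins (GBPs) attach to membranes of intracellular parasites and bacteria. The immunity-related GTPases (IRGs) comprise effectors that disrupt the vacuoles of such parasites, and the IRGM proteins, which sit on the cell's own membranes and hold the effectors inactive there. In mouse T cells Irgm1 is known to protect activated CD4 T cells from death under interferon gamma.

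All 9 genes measured higher in liver Treg than in spleen Treg, by 0.28 (Gbp3) to 0.86 (Iigp1) on the log2 scale, or 1.22-fold to 1.81-fold, with a median log2 difference of 0.39. Over all genes the median difference was -0.02. None of the 9 had a limma p under 0.05 after Benjamini-Hochberg adjustment over all genes, which 0.0206% of all genes had (0.0103% with liver higher). At an unadjusted p under 0.05 all 9 were higher in liver, against 2.09% of all genes. In 8 of the 9 each liver array lay above each spleen array, which was so in 3.11% of all genes, and in none did each lie below, which was so in 3.09%. Since the 9 genes were chosen with results of these data known, these shares describe them and test nothing. In RNA of bulk cells, a gene expressed by more of the cells and a gene expressed at a higher level per cell cannot be told apart.

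Values are log2 signals, and their precision is limited by the number of arrays. The array medians over all rows ran from 5.68 to 5.90, with spleen array 5 the highest. The 9 genes were far above the dim end of the table, with a mean over the 6 arrays of 8.56 (Iigp1) to 11.33 (Igtp), so none was lost to a filter on dim genes. The Treg genes Foxp3, Il2ra, Ctla4 and Ikzf2 were present in both tissues, and the Foxp3 signal was 9.47 ± 0.14 on the liver arrays and 9.49 ± 0.09 on the spleen arrays (SD, n = 3).

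**Figure D1:**
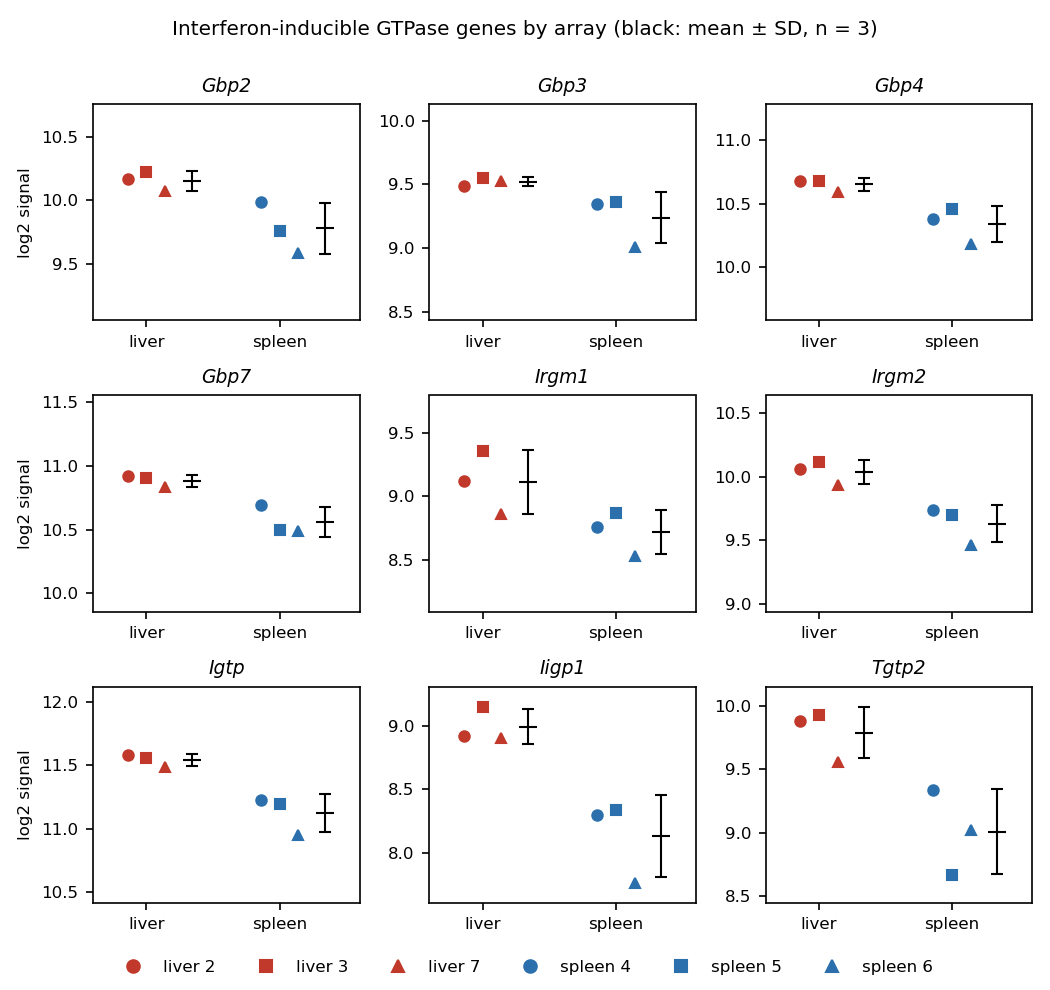
Log2 signal (vertical axis, the same span in each panel) of the 9 GTPase genes on the 3 liver arrays (red) and the 3 spleen arrays (blue), each array with its own marker, and the mean ± SD of each tissue in black. In 8 genes the tissues do not overlap, and in Irgm1 liver array 7 at 8.86 lies just under spleen array 5 at 8.87.

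Among the GBPs, Gbp2, which in mouse coats the vacuole of the parasite Toxoplasma, measured 10.17, 10.23 and 10.07 on liver arrays 2, 3 and 7 and 9.99, 9.76 and 9.59 on spleen arrays 4, 5 and 6. Every liver array was above every spleen array, and the spleen arrays were spread more widely than the liver arrays. The log2 difference of Gbp2 was 0.38 (SE 0.13, 95% confidence interval 0.10 to 0.65, limma adjusted p = 0.765). Gbp3, in the same cluster on chromosome 3, measured 9.49, 9.55 and 9.52 in liver and 9.35, 9.37 and 9.01 in spleen. Its tissues did not overlap, but spleen array 6 stood apart from the other 2 spleen arrays. The Gbp3 difference of 0.28 (SE 0.12, adjusted p = 1) was 0.165 without spleen array 6. Gbp7, also in the chromosome 3 cluster and known in mouse macrophages for its part in assembling the NADPH oxidase, measured 10.92, 10.90 and 10.83 in liver and 10.70, 10.50 and 10.49 in spleen. Here spleen arrays 5 and 6 were alike and array 4 was the highest of the spleen arrays. The Gbp7 difference was 0.32 (SE 0.11, 1.25-fold, adjusted p = 0.806). Gbp4, which lies in the other GBP cluster on chromosome 5, measured 10.68, 10.68 and 10.60 in liver and 10.38, 10.46 and 10.18 in spleen. Liver arrays 2 and 3 were alike to the second decimal and spleen array 6 was again the lowest, with a difference of 0.31 (SE 0.11, 1.24-fold, adjusted p = 0.946).

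The 3 IRGM genes, whose products regulate the other IRG proteins, differed by nearly the same amount. Igtp, also known as Irgm3, measured 11.58, 11.56 and 11.49 in liver and 11.23, 11.20 and 10.95 in spleen, and its tissues did not overlap (log2 difference 0.42, SE 0.12, 1.33-fold, limma adjusted p = 0.507). Irgm2, the gene next to it on chromosome 11, measured 10.06, 10.12 and 9.93 in liver and 9.74, 9.70 and 9.46 in spleen, again without overlap (0.40, SE 0.12, 1.32-fold, adjusted p = 0.583). Irgm1 measured 9.12, 9.36 and 8.86 in liver and 8.76, 8.87 and 8.53 in spleen. It was the 1 gene of the 9 in which the tissues overlapped, because liver array 7 lay close to the spleen arrays. Its difference was 0.39 (SE 0.14, 1.31-fold, adjusted p = 0.921), and 0.52 without liver array 7 and 0.27 without liver array 3.

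Of the 9 genes, the effector IRG genes Iigp1 and Tgtp2 differed most. Iigp1, or Irga6, which in mouse loads onto the Toxoplasma vacuole, measured 8.92, 9.15 and 8.90 in liver and 8.30, 8.34 and 7.76 in spleen. Every liver array was well above every spleen array, and spleen array 6 was far below the other 2. Iigp1 averaged 8.99 ± 0.14 over the liver arrays and 8.13 ± 0.32 over the spleen arrays (SD, n = 3), a log2 difference of 0.86 (SE 0.15, 1.81-fold, 95% confidence interval 0.52 to 1.19, limma adjusted p = 0.141). Tgtp2 encodes the effector Irgb6 and has a near copy, Tgtp1, from which its signal may not be separable. It measured 9.88, 9.93 and 9.56 in liver and 9.33, 8.67 and 9.02 in spleen. Here array 5, not array 6, was the lowest of the spleen arrays, which no other of the 9 genes showed. The Tgtp2 difference was 0.78 (SE 0.16, 1.72-fold, 95% confidence interval 0.42 to 1.14, adjusted p = 0.283), and 0.609 without spleen array 5. Iigp1 and Tgtp2 had the largest differences of the 9 in each of the 16 alternative settings tried. The dim-gene filters, row choices and variance priors leave the 9 differences as they are, and subtracting array medians shifts them alike. Those settings therefore could not change the order of the 9. In the main fit each IRG gene, IRGM genes included, differed by more than each GBP, though narrowly (Irgm1 0.393, Gbp2 0.377). The same held in 14 of the 16. The exceptions were the fits without liver array 3, where Irgm1 at 0.27 was below the highest GBP at 0.342, and without spleen array 4, where Irgm1, Irgm2 and Igtp at 0.413, 0.456 and 0.467 were all below Gbp2 at 0.482. The difference between the subfamilies was not tested, and this order did not hold among the related genes described below. There Gbp2b and Gbp10 differed by 0.58 and 0.44, more than each IRGM gene, and the IRG genes Gm5431 and Ifi47 by 0.22 and 0.06. The IRG genes Gm4951 and F830016B08Rik, at 0.90 and 0.89, were above each GBP.

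**Figure D2:**
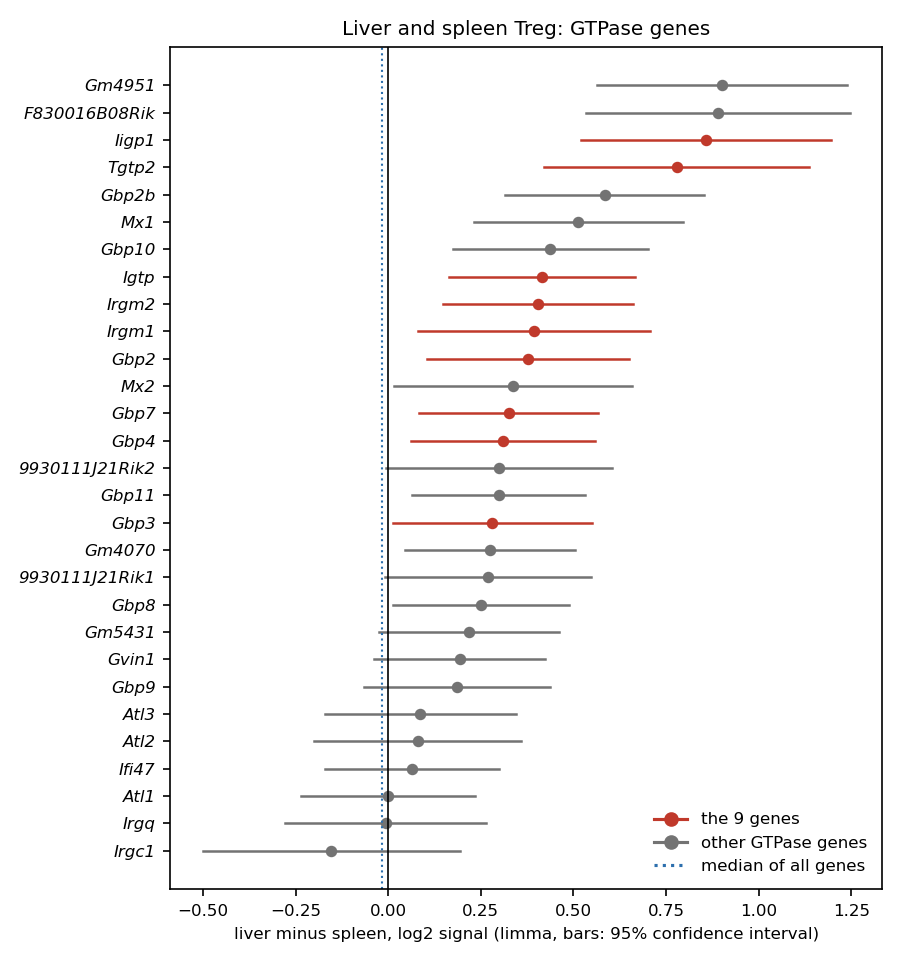
Difference of liver minus spleen in log2 signal (horizontal axis, points, with 95% confidence intervals from limma as bars) for the 9 genes (red) and 20 related GTPase genes (grey), ordered by size, with the median of all genes as a dotted line at -0.02. The 9 genes lie between 0.28 and 0.86. Of the members of the GTPase families not known as interferon-inducible, Irgq and Atl1 lie near 0 and Irgc1 lies at -0.15.

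The arrays of a tissue were not alike in these genes, and the 9 genes varied together. Of the 9 genes, 8 were lowest among the liver arrays on array 7 and 8 were lowest among the spleen arrays on array 6. Most genes of like brightness did the same: of the 7290 genes with a mean of at least 8, 79.5% were lowest among the liver arrays on array 7 and 56.4% among the spleen arrays on array 6. With each gene centred on its own mean, the average over the 9 was 0.24, 0.32 and 0.13 on liver arrays 2, 3 and 7 and -0.09, -0.20 and -0.40 on spleen arrays 4, 5 and 6. The gap between spleen arrays 4 and 6 was thus larger than that between liver array 7 and spleen array 4. Over the 36 pairs of genes, the Pearson correlation across the 6 arrays ran from 0.642 to 0.988, with a median of 0.917. After the tissue means were removed it ran from -0.0885 to 0.957, with a median of 0.765 and 34 pairs above 0. These correlations are descriptions over 6 arrays that share the same processing. Leaving out spleen array 6 lowered the median difference to 0.298 and left 5 of the 9 genes at an unadjusted p under 0.05, while without spleen array 5 the median was 0.437 with all 9 genes under it. The background moved as well, with 525 of the 38854 genes higher in liver at that p in the fit without spleen array 6, against 1399 in the one that leaves out array 5. The median difference of all genes was -0.0404 in the first of these fits and 0.0454 in the other.

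Short stretches before the start of 6 of these genes are shown because they carry the letters of the elements through which interferon acts on the family. Promoter windows from RefSeq on GRCm38.p6, 300 bases long with 250 bases before the annotated start and 50 after it, were listed for 8 of the 10 genes, not for Gbp4 or Iigp1. They were searched on both strands for an ISRE-like motif (the letters GAAA, any 2 bases, then GAAA again) and a GAS-like motif (TTCNNNGAA), with no overlap between the letters of the 2 kinds of motif in the windows of these 8 genes. The build behind the array's rows is not stated in the labels or headers used here, and the windows are therefore linked to the measurements by gene symbol only. Shown are the 150 bases before the start, 5′ to 3′ along the gene, with matches in capitals. They lie at chr3:142620513-142620662 (plus strand) for Gbp2, chr3:142530186-142530335 (plus strand) for Gbp7, chr11:48871421-48871570 (minus strand) for Irgm1, chr11:58199406-58199555 (plus strand) for Igtp, chr11:58214827-58214976 (plus strand) for Irgm2 and chr11:49064213-49064362 (minus strand) for Tgtp2.
Gbp2: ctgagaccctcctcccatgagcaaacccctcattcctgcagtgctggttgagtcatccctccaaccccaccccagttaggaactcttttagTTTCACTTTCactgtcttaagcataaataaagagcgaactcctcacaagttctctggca
Gbp7: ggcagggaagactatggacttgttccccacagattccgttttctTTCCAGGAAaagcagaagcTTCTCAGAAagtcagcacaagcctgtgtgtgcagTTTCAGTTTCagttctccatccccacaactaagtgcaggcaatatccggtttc
Irgm1: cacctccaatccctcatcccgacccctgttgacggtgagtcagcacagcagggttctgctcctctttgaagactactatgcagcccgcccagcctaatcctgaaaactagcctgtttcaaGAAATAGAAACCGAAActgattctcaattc
Igtp: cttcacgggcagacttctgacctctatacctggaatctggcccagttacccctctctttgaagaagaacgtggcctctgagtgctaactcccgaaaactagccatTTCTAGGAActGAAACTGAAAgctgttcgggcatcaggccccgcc
Irgm2: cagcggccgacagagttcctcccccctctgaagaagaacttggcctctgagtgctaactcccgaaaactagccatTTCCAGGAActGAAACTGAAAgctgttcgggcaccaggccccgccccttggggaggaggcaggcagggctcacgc
Tgtp2: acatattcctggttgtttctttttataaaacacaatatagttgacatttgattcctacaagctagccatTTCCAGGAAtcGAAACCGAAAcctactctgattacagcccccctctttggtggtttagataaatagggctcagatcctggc
An ISRE-like match was present in a window of each of the 8 genes (the 7 measured ones and Gbp5), against 3.44% of all 32851 windows. Those 32851 windows were not selected by chromosome. A GAS-like match was present in 5 of the 8, against 8.3% of all windows, and both kinds were present in those same 5 genes, against 0.45%. Of 10 related GTPase genes with a window, the atlastins and Irgq among them, 3 had an ISRE-like match. In 9930111J21Rik1 that match lies after the start. Only 1 of the 10, Tgtp1, had a GAS-like match, and it had both kinds. In Igtp, Irgm2 and Tgtp2 the 2 matches stand in the same order with 2 bases between them. This arrangement, a GAS-like match followed by any 2 bases and an ISRE-like match, searched after the sequences had been seen, was found in 5 windows of the 32851. These 5 were the windows of Igtp, Irgm2, Tgtp2, its copy Tgtp1 and Gm12185, which is listed as Irgb2b1 in the RefSeq gene table, all on chromosome 11. Gm12185 differed by 0.51 (SE 0.12, limma adjusted p = 0.365), Igtp by 0.42, Irgm2 by 0.40 and Tgtp2 by 0.78. Irgm1 and Gbp3 hold a pair of overlapping ISRE-like matches and no GAS-like one, and Gbp2 holds a single ISRE-like match 59 bases before its start. A match of letters describes the sequence and is not a bound site, and no match says only that these letters are not in the window.

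**Figure D3:**
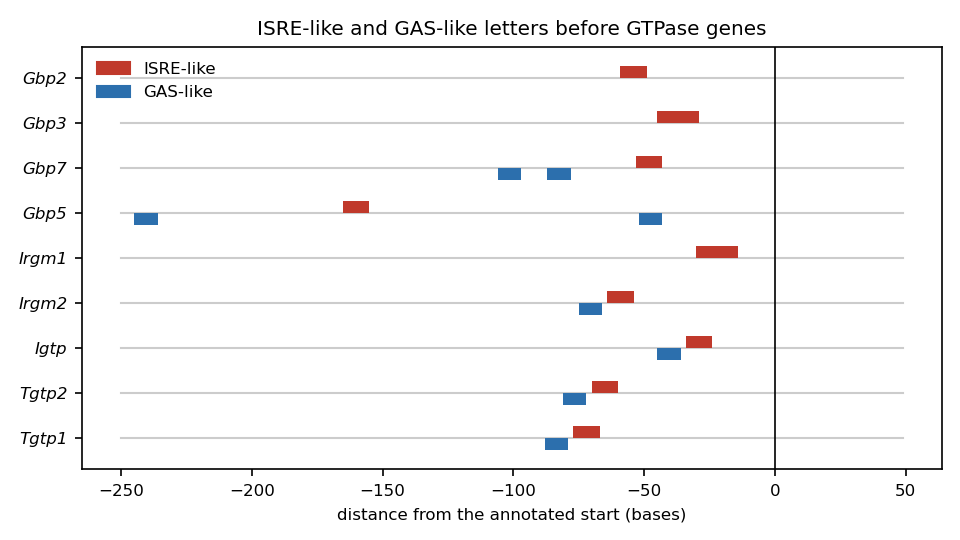
Position of ISRE-like (red) and GAS-like (blue) letters in the windows of 9 GTPase genes, as distance in bases from the annotated start (horizontal axis, 0 at the start, windows as grey lines). In Irgm2, Igtp, Tgtp2 and Tgtp1 a GAS-like match stands 2 bases before an ISRE-like match.

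Related GTPase genes of the same families showed the same direction in most cases. Of 23 such genes listed, 20 had a row, 17 were higher in liver and 3 lower, and none passed limma over all genes. At an unadjusted p under 0.05 there were 9, all higher in liver, and in 10 the liver arrays lay above the spleen arrays. Their median log2 difference was 0.26. The largest differences were those of Gm4951 and F830016B08Rik, which carry the synonyms Ifgga2 and Ifgga4 in the RefSeq gene table and are located on chromosome 18 as Iigp1 is. Gm4951 measured 8.20, 8.19 and 8.37 on liver arrays 2, 3 and 7 and 7.65, 7.41 and 6.99 on spleen arrays 4, 5 and 6. F830016B08Rik measured 8.35, 8.36 and 8.67 in liver and 7.94, 7.27 and 7.51 in spleen. In both genes liver array 7 was the highest of the liver arrays, the reverse of its place in 8 of the 9 genes above. Their differences were 0.90 (SE 0.15, adjusted p = 0.121) and 0.89 (SE 0.16, adjusted p = 0.151).

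Of the other GBPs, Gbp2b on chromosome 3 differed by 0.58 (SE 0.12, limma adjusted p = 0.286), more than any GBP among the 9. The chromosome 5 genes Gbp10, Gbp11, Gbp8 and Gbp9 differed by 0.44, 0.30, 0.25 and 0.19, and as close relatives of Gbp4 they may share signal with it. Gm12250, listed as Irgb10 and added after the table had been seen, differed by 0.55 (SE 0.17, adjusted p = 0.621). The IRG genes 9930111J21Rik2, 9930111J21Rik1 and Gm5431 differed by 0.30, 0.27 and 0.22, and the very large GTPase genes Gm4070 and Gvin1 by 0.27 and 0.19. The dynamin-like genes Mx1 and Mx2 differed by 0.51 and 0.34, and both were faint, at liver means of 6.55 and 6.49. Mx1, Mx2 and Gbp11 are listed as transcribed pseudogenes in RefSeq. Ifi47, also known as Irgd, was dim at a mean of 5.73 in liver and differed by 0.06. Of the family members with other known roles, Irgq was near 0, at -0.01. The atlastins Atl1, Atl2 and Atl3, which shape the endoplasmic reticulum, were at 0.00, 0.08 and 0.09. Irgc1, known from testis, differed by -0.15, with spleen array 5 at 7.54 against 6.85 and 6.97 on spleen arrays 4 and 6. Leaving out spleen array 5 or 6 gave a median of 0.207 or 0.219, with 20 or 17 of the 20 genes positive.

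**Figure D4:**
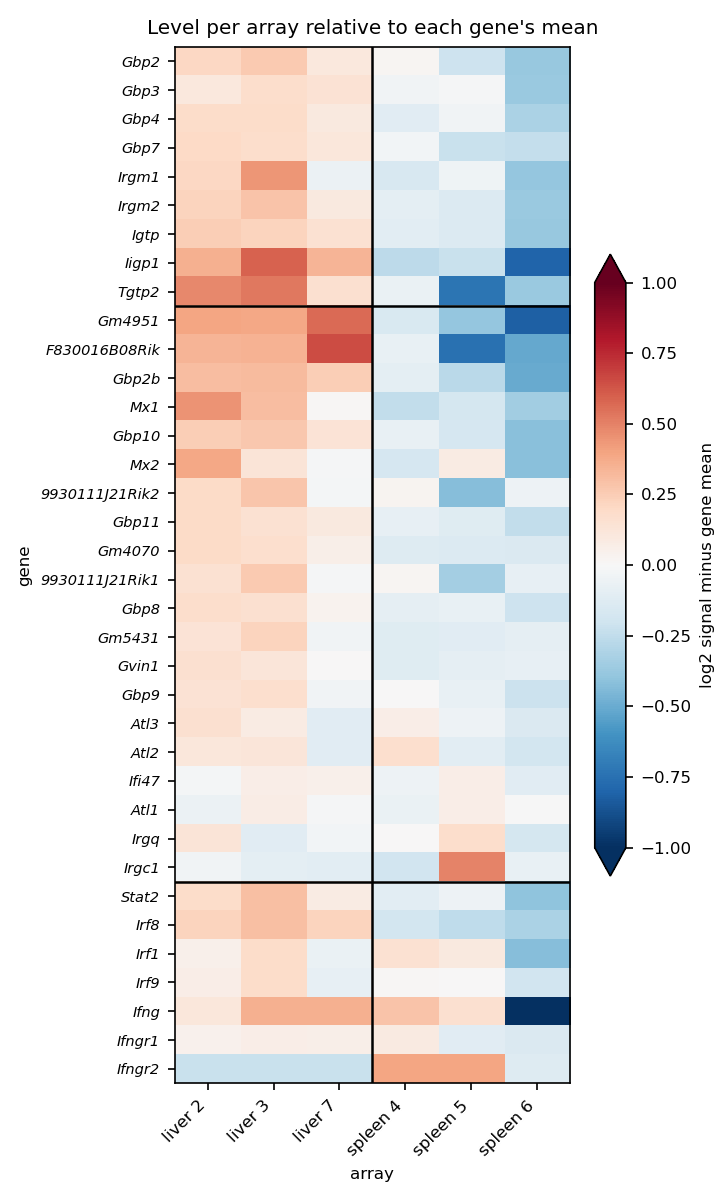
Log2 signal of each gene on each array minus the mean of that gene over the 6 arrays (colour, red above and blue below), for the 9 genes (top), the 20 related GTPase genes (middle) and 7 genes of interferon signalling (bottom). In the top block all but 1 gene are above their mean on liver array 7 and all but 1 below it on spleen array 4, and spleen array 6 is the lowest in 8 of the 9.

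The genes that relay the interferon signal were mixed. Irf8, a transcription factor that acts with Irf1 on such genes, measured 7.61, 7.69 and 7.61 in liver and 7.20, 7.13 and 7.07 in spleen, without overlap (log2 difference 0.50, SE 0.11, limma adjusted p = 0.283). Irf1 itself differed by 0.12, and its spleen arrays 4 and 5, at 9.30 and 9.24, lay within the liver range of 9.07 to 9.33. Ifng, the ligand, was spread over 9.89 to 10.13 in liver and measured 10.06, 9.94 and 8.52 in spleen, so that it overlapped, with array 6 the lowest as in the GTPases. The receptor chain Ifngr1 differed by 0.11, and Ifngr2 by -0.45 (SE 0.14, adjusted p = 0.716), in the direction opposite to the GTPases. The inhibitor Socs1 differed by 0.02 and Nlrc5, an activator of MHC class I genes, by 0.08. Of the 15 genes of this list none passed over all genes, and at an unadjusted p under 0.05 there were 2 higher in liver, Irf8 among them, and 1 lower (Ifngr2). The list's median was 0.05, and -0.00947 without spleen array 6.

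On the type I interferon side Stat2, a subunit of the factor that binds ISRE elements, differed by 0.37 (SE 0.13, limma adjusted p = 0.792) and Irf9, the DNA-binding subunit of that factor, by 0.11. None of the 11 genes of type I signalling passed, and Stat2 alone was under an unadjusted p of 0.05. Usp18, which dampens the type I receptor, differed by 0.18 and the receptor chain Ifnar1 by -0.12. The list's median was 0.04, and it was below 0 without spleen array 6 (-0.046) or liver array 3 (-0.0316). The interferon genes Ifna2 and Ifnb1 were dim, with means under log2 5.

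Among other targets of interferon gamma 20 of 23 were higher in liver, none passed over all genes, 6 were under an unadjusted p of 0.05 and the median was 0.12. Serpina3g, a protease inhibitor of activated lymphocytes, differed by 0.95 (SE 0.15, limma adjusted p = 0.0746), the chemokine Cxcl9 by 0.55, the nucleic acid sensor Zbp1 by 0.30 and the tryptophan tRNA ligase gene Wars by 0.30. Cxcl9 was faint, at means of 6.08 in liver and 5.53 in spleen. B2m and H2-K1, subunits of MHC class I named here after their values were seen, differed by 0.00 and 0.01. That median was 0.0568 without spleen array 6. Among 19 genes stimulated by type I interferon 18 were positive, none passed, 4 were under an unadjusted p of 0.05 and the median was 0.20. Those 4 were Ifit3, Ifit1, Bst2 and Rsad2, all antiviral genes, at 0.79, 0.73, 0.60 and 0.44. The RNA sensors Ddx58 and Ifih1, also named after their values were seen, were at 0.09 and 0.03. The list's median was 0.121 without spleen array 6.

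**Figure D5:**
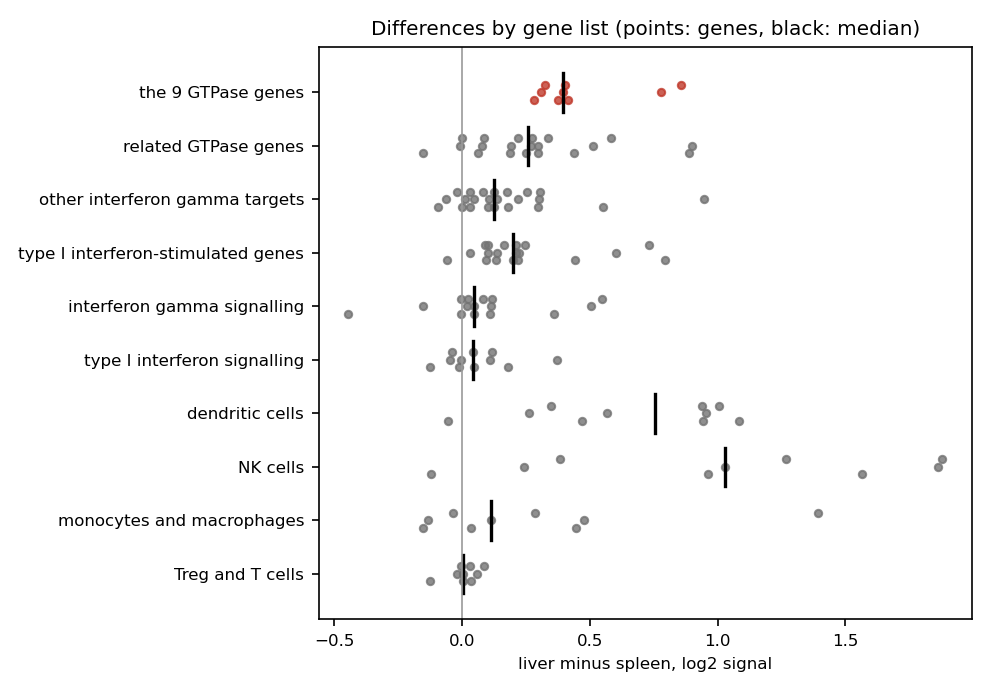
Difference of liver minus spleen in log2 signal (horizontal axis) for the genes of 10 lists (points), with the median of each list as a black bar. The 9 GTPase genes have a median of 0.39, above those of the signalling lists at 0.05 and 0.04 and below those of the dendritic cell and NK cell markers at 0.75 and 1.03.

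Markers of other cell types were also higher in the liver samples. Of 10 dendritic cell markers none passed limma over all genes, but 9 had all liver arrays above all spleen arrays, against 3.11% of all genes. The remaining marker, Zbtb46, differed by -0.06, with overlap. The median difference of the 10 was 0.75, and the sum of their linear signals was 1144 to 1757 in liver and 810 to 1044 in spleen. Xcr1, a defining marker of cross-presenting dendritic cells, was dim, with a mean under log2 5. The MHC class II genes H2-Aa, H2-Ab1 and Cd74 of that list are themselves known to be induced by interferon gamma. Of 9 NK cell markers 1 passed (Klrc1, limma adjusted p = 0.0305) and 6 lay above, with a median of 1.03 and summed signals of 2065 to 2494 and 702 to 1022. Eomes, the only NK cell marker lower in liver, differed by -0.12, with overlap. Klra8 was dim, and Ncr1, a defining NK cell receptor, was faint, at means of 5.40 in liver and 5.02 in spleen, with overlap. Activated T cells can also express Klrd1, Klrk1 and Gzma of that list. Gzma and Tyrobp, at liver means of 10.03 and 9.29, were the brightest genes of the list and weigh most in its summed signals. Summed signals of 9 monocyte and macrophage markers were 2113 to 2715 in liver and 1801 to 1938 in spleen, and those of the Kupffer cell, hepatocyte and endothelial markers overlapped between the tissues. Of the hepatocyte list Alb alone had all liver arrays above, at means of 5.40 and 4.93. Of 5 CD8 T cell markers none passed limma over all genes, 3 had all liver arrays above and were under an unadjusted p of 0.05 (Cd8a, Gzmk and Prf1), and the median was 0.29. Cd8a differed by 0.97 (SE 0.17, limma adjusted p = 0.141). The median of the B cell markers was 0.19. All 10 dendritic cell markers and 8 of the 9 NK cell markers were lowest among the liver arrays on array 7, as were 8 of the 9 GTPases, 14 of 15 autophagy genes and 7 of 9 Treg and T cell genes. On the linear scale liver array 7 held a median of 0.726 of the excess of liver arrays 2 and 3 over spleen in the 9 GTPases (0.225 in Irgm1 to 1.02 in Gbp3). In the dendritic cell markers that differed by over 0.25 that median was 0.364 (0.199 to 0.688), and in such NK cell markers 0.303 (0.0874 to 1.48). In the 4 such CD8 T cell markers it was 1.34 (0.836 to 1.83). In the related GTPases that differed by over 0.25 it was 0.584. It was 0.537 in such other interferon gamma targets and 0.369 in such type I interferon-stimulated genes. The part of these cell types in the GTPase differences was not tested.

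Genes whose pattern over the 6 arrays was most like the average of the 9 were ranked among 2290 named genes with a mean of at least 6 and a range of at least 0.5. The 10 with the highest Pearson correlation, all between 0.9905 and 0.999, were Tpi1, Mcm6, Ctsw, Serpina3g, Gbp10, Plk1, Rad54b, Tk1, Itga1 and Spag5. Serpina3g and Gbp10 are genes of the lists above. Tpi1 is an enzyme of glycolysis, Mcm6 and Tk1 act in DNA replication, Plk1 and Spag5 in mitosis and Rad54b in DNA repair, while Ctsw is a cathepsin of cytotoxic cells and Itga1 a collagen-binding integrin. Tpi1 measured 8.97, 9.10 and 8.81 in liver and 8.43, 8.27 and 7.99 in spleen, and its 6 arrays stood in the same order as in the average of the GTPases. Correlations above 0.95 were found for 6.2% of the ranked genes, so that a high value over 6 arrays is not rare.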

How the data were processed

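The deposited values are log2 signals that the authors produced with Affymetrix Expression Console and RMA (versions not given in the sources used here), as listed in the submitters' processing notes. The array is called Mouse Gene ST 2.0 in the labels' protocols and MTA-1_0 in the file headers. Both deposited tables held the same numbers (largest difference 0). Of 72688 rows, 39514 had 1 gene symbol, and the row with the highest mean was kept per symbol, which gave 38854 genes. Liver and spleen were compared with limma 3.58.1 in R 4.3.3 (lmFit, eBayes, two-sided, no covariate) with Benjamini-Hochberg adjustment over all genes. With 3 arrays against 3 the smallest two-sided p of an exact permutation test is 0.1, so calls rest on limma's pooled spread. Scaling, dim-gene filters, row choice, variance prior, array weights and leaving out each array were tried as alternatives. RMA is known to compress differences of dim genes. The members, the gene lists and the rule for named genes (all members and related GTPases, up to 4 genes with the largest difference per other list beside fixed signalling genes, and the 10 most similar genes) were chosen with earlier results of these data known. A gene of the signalling list is not reported here.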

Additional observations from a re-analysis of the deposited data

How the results depend on the processing

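All 9 GTPases stayed higher in liver under all 16 alternatives. The dim-gene filters, row choices and variance priors could not change this, since they leave each of the 9 differences as it is. The number of genes called over the whole table was 8, and 0 after subtraction of array medians, quantile normalization or cyclic loess, under which 1448, 2391 and 2429 had an unadjusted p under 0.05. It was 18 and 21 without dim genes (lower 50% by mean, mean under log2 5), 23 and 27 with an intensity trend without and with robust estimation, 3533 with array weights, and 0 to 33 with 1 array left out (0 without spleen array 5, with 2017 at an unadjusted p under 0.05). The number of GTPases called was 1 with trend and robust estimation (Iigp1, limma adjusted p = 0.0405), 9 with array weights and 0 in the other 14 alternatives, including each array left out. Array weights gave liver array 2 a weight of 9.34 and spleen array 5 one of 0.188, and with them the median difference of the GTPases was 0.539. The cause of these changes was not tested. With 1 array left out that median was 0.298 to 0.456, and the number of GTPases without overlap 8 to 9. That number was 9 without liver array 7 or spleen array 5, where the share of all genes with liver above rose from 3.11% to 13.7% and 14.9%. It was 7 after subtraction of array medians. Averaging the rows of a symbol, or taking its lowest row, left the 9 differences as they were, since each has 1 row. No paired analysis was possible because the liver and spleen arrays share no number in the labels. The small number of arrays, and signal from near copies, limit these values.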

Other observations

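Lists of genes that work with the GTPases had medians near 0. Of 15 autophagy genes, whose conjugation machinery places GTPases on vacuoles, none passed limma over all genes, none was under an unadjusted p of 0.05, and the median difference was 0.03. Trim21 was the highest at 0.18 and Map1lc3b the lowest at -0.14. Of 10 inflammasome genes none passed and none was under an unadjusted p of 0.05, with a median of 0.05. Casp4, the receptor of cytosolic lipopolysaccharide that GBPs help to engage, was at -0.24, with all liver arrays below all spleen arrays, while Aim2 and Casp1 were at 0.11 and 0.10. Of 6 genes for the prenylation of proteins, a lipid tail that some GBPs carry, none passed and none was under an unadjusted p of 0.05. The median of these 6 was 0.03, and the shared subunit gene Fnta was the highest at 0.24. The signs of these medians were not stable: without spleen array 6 they were -0.0381, -0.00398 and -0.0211 for autophagy, inflammasome and prenylation genes. Without liver array 3 the last 2 were also below 0 (-0.0179 and -0.0105). With array weights the medians were 0.196, 0.0856 and 0.158.

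Among genes with a mean of at least 8 and a promoter window, the 166 with an ISRE-like match had a median difference of 0.06 and the 3310 without one 0.04. In the 28 genes with both an ISRE-like and a GAS-like match the median was 0.11. The measured GTPases were not removed from these sets, and Gbp7, Igtp, Irgm2 and Tgtp2 are among the 28. Over all genes with a window, whatever their mean, the median was -0.007 with an ISRE-like match and -0.014 without one. With both kinds of match it was -0.019. The median of the 9 GTPases was 0.39.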
